A study of Mus musculus with 37 samples.

Results

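The comparison described here set brain RNA of 5 adolescent samples labelled Abx morphine, from mice given oral antibiotics and morphine, against that of 5 labelled H2O saline, from mice kept on water and given saline. The 10 libraries were taken by labelled age and treatment from the 37 of the series. All mice were wild-type C57BL/6J males, and the adolescents were treated from postnatal day 25 for 5 days. Morphine was given under the skin at 15 mg/kg, and which antibiotics were used is not stated in the labels. Both treatments differ between the groups, so within this contrast the part of the antibiotics and that of morphine cannot be told apart. For that reason the other adolescents were set beside them, namely 3 usable Abx saline libraries (antibiotics with saline) and 5 H2O morphine libraries (water with morphine). Adults treated from postnatal day 55 gave 4 usable Abx morphine and 3 H2O saline libraries. The study asked how a short course of antibiotics changes gene expression and the response to morphine at each age.

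Morphine acts on the mu opioid receptor, which couples to inhibitory G proteins and lowers cyclic AMP. Opioids also raise circulating glucocorticoids in rodents, lower body temperature at some doses and shift circadian behaviour. Oral antibiotics deplete gut bacteria, whose metabolites reach the brain and are known to influence the maturation of microglia.

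The samples are labelled as brain with all cell types, while the medial prefrontal cortex is named in the title of the study. The total was 14105449 to 31560468 counts in the Abx morphine libraries and 10630727 to 27898977 in the H2O saline libraries. Values are CPM, the counts of a gene per 1000000 counts of its library, with library totals scaled by edgeR's TMM factors. The 15 markers of cortical excitatory neurons summed to 7861 to 8631 CPM in Abx morphine, against 8421 to 9215 CPM in H2O saline replicates 2 to 5 and 5363 CPM in H2O saline replicate 1. That library stood apart. Striatal neuron markers summed to 426 to 469 CPM in Abx morphine, against 392 to 451 CPM in H2O saline replicates 2 to 5 and 2421 CPM in replicate 1, and myelin markers to 3194 to 7405 CPM, against 1449 to 3328 CPM and 22109 CPM. The counts below were therefore repeated without it. Reads of the islet hormones Ins1 and Ins2 exceeded 20 counts in 7 libraries of the series (415 to 998 counts), of which 3 were Abx morphine (replicates 1, 3 and 4) and 1 was H2O saline (replicate 5), and in every other library they reached at most 10. The count over all genes is given below with a term for such reads in the fit and without the 7 libraries. Leaving them out keeps 2 Abx morphine and 4 H2O saline libraries, and H2O saline replicate 1 is 1 of the 4. No fit left out both that library and those with islet reads. Where a call is lost in this setting, the islet reads, the smaller groups and the larger weight of replicate 1 cannot be told apart. Counts without the libraries with islet reads are also given for some of the gene lists.

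In edgeR's quasi-likelihood test, 1490 of 19332 genes passed an adjusted p of 0.05 (7.71% of genes tested). Of these, 647 were higher (3.35%) and 843 lower (4.36%) in Abx morphine. With that library left out the count was 1530 of 19253 (7.95%), with 678 higher (3.52%) and 852 lower (4.43%), and 1005 genes passed in the same direction in both fits (5.22%), 456 higher (2.37%) and 549 lower (2.85%). The other 485 passed only with that library present. Most changes were small, with a median size of 0.31 on the log2 scale among the genes that passed. Of those genes 104 changed by at least 1, and 50 both passed and changed by at least 1 in each of the 2 fits. The median over all genes tested was -0.01. In 1219 genes (6.31%) the 5 Abx morphine and the 5 H2O saline libraries did not overlap in CPM, and this held for 867 of the genes that passed (58.2%). The count fell to 760 without Abx morphine replicate 1 and to 991 without Abx morphine replicate 2. It fell to 450 without the libraries with islet reads and to 990 with a term for them. It was 499 when the fit held only the groups compared and 960 with no filter on low counts. In the following, a fold change is log2 of Abx morphine over H2O saline with its standard error (SE), and adjusted p values come from the same edgeR test across all genes.

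**Figure D1:**
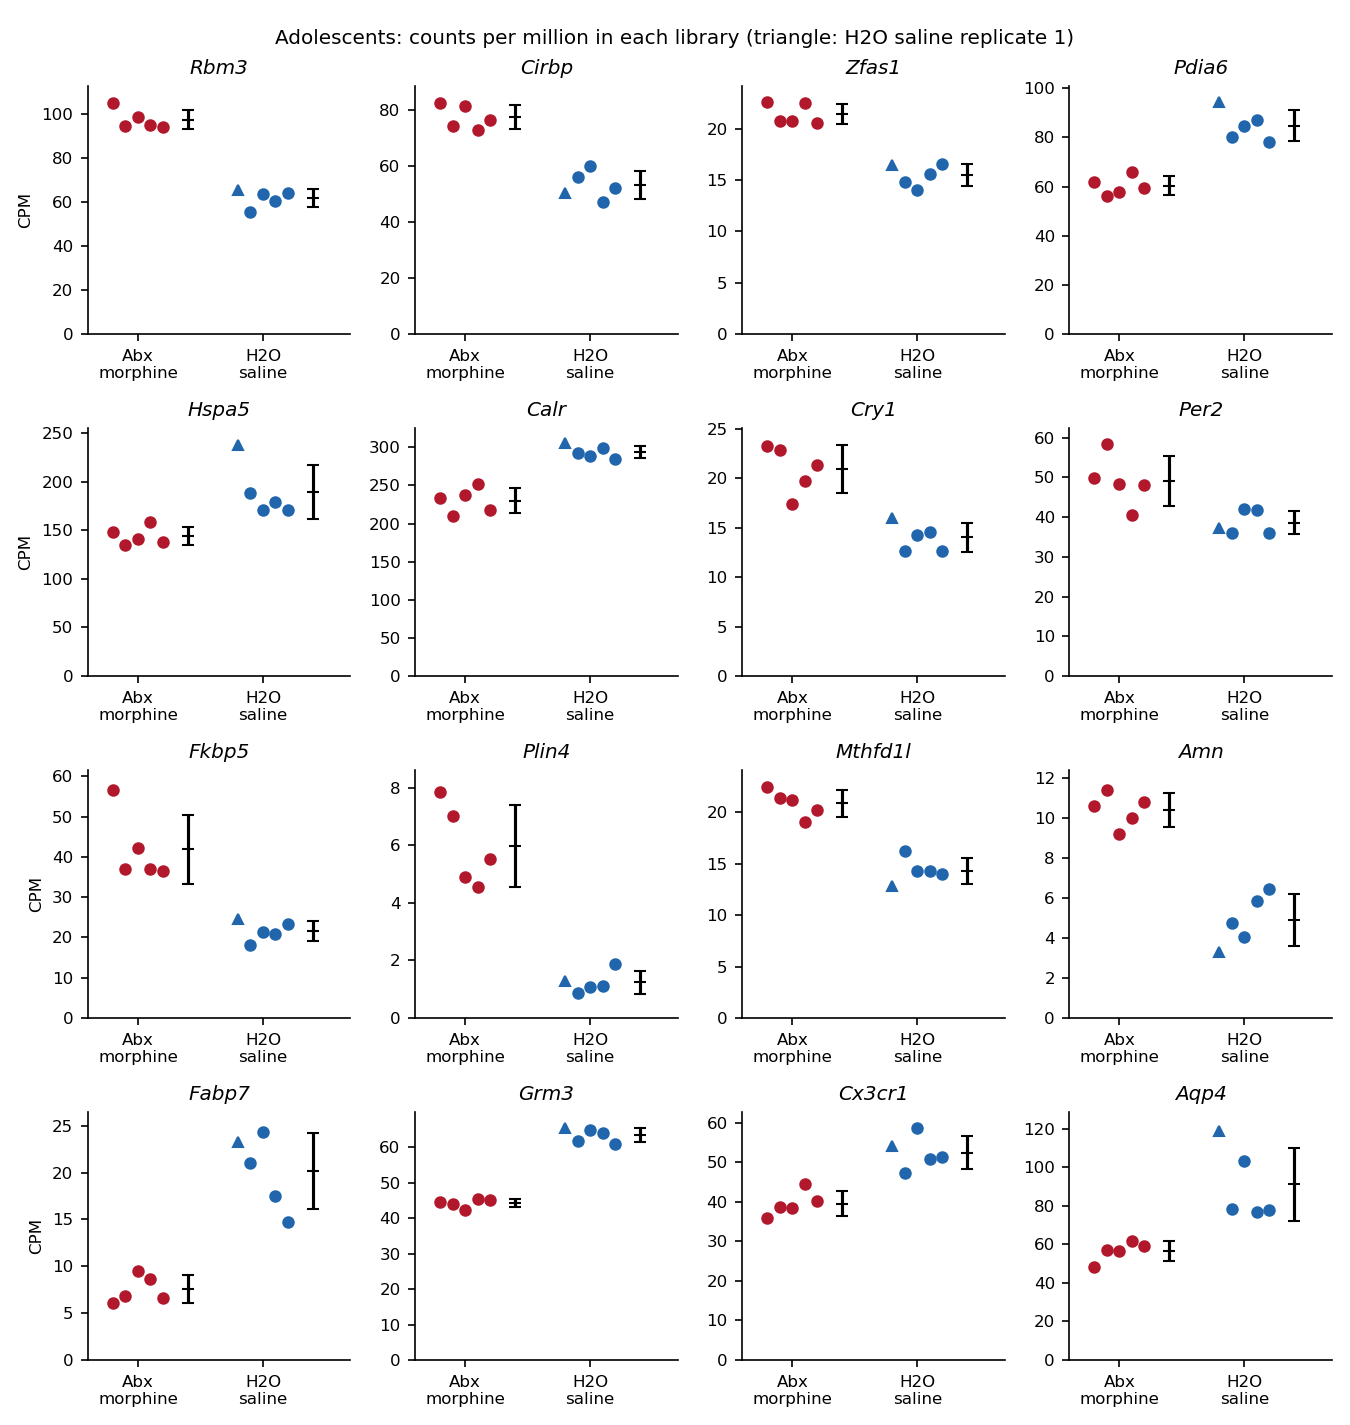
CPM of 16 genes in each of the 5 Abx morphine (red, left) and 5 H2O saline (blue, right) adolescent libraries, with the mean and SD as a bar beside the points, and a triangle for H2O saline replicate 1. In 15 of the panels the groups do not overlap, and in the Per2 panel the lowest Abx morphine library, at 40.6 CPM, lies below the highest H2O saline library, at 41.9 CPM.

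The smallest p of all genes tested was that of Rbm3, a cold-inducible gene. Rbm3 (ENSMUSG00000031167), which is induced by mild cooling and binds messenger RNA, had 105, 94.8, 98.7, 95.2 and 94.2 CPM in Abx morphine, against 65.6, 55.7, 63.6, 60.5 and 64.0 CPM in H2O saline. The groups were far apart, with a fold change of 0.65 ± 0.06 (edgeR adjusted p = 1.68e-08), and 0.68 without H2O saline replicate 1. Cirbp, the related cold-inducible protein, had 82.7, 74.4, 81.7, 72.9 and 76.7 CPM in Abx morphine, against 50.5, 56.3, 60.0, 47.1 and 52.4 CPM in H2O saline. It rose by 0.55 ± 0.07 (edgeR adjusted p = 7.31e-06), again with no overlap. The splicing factor Srsf5 also rose, by 0.25 ± 0.07, and Hspa8, the constitutive cytosolic chaperone, fell by 0.16 ± 0.04. The call on Srsf5 was lost without Abx morphine replicate 1 or 2 or H2O saline replicate 2 (edgeR adjusted p = 0.0959, 0.0529 and 0.0545). It was also lost without the libraries with islet reads (edgeR adjusted p = 0.289). Of the 9 genes of the cold-response list, 3 rose and 1 fell, with a median of 0.17, and without H2O saline replicate 1 the counts were 5 and 1, Clk4 being among those added. Rbm3os, annotated antisense to Rbm3, rose by 0.58 ± 0.09, and because no source used here says whether counting used strand, its reads and those of Rbm3 cannot be told apart.

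A few other RNA genes rose, while none of 11 long nuclear RNAs tested passed with or without H2O saline replicate 1 (medians 0.19 and 0.33). Zfas1, the host of several small nucleolar RNAs, had 22.6, 20.8, 20.8, 22.5 and 20.6 CPM in Abx morphine, against 16.5, 14.8, 14.0, 15.6 and 16.6 CPM in H2O saline, a fold change of 0.47 ± 0.07 with no overlap. Gas5, a second such host gene, rose by 0.23 ± 0.07, and with these 2 higher and none lower the list of 14 host genes had a median of 0.14. The other 12 did not pass, so that 14.3% of the list passed, where 7.71% of all genes tested did. The call on Gas5 was kept without Abx morphine replicate 2 or 5 or H2O saline replicate 1 and lost without any other of the 10 libraries (edgeR adjusted p = 0.0724 to 0.153). With the libraries holding islet reads left out, Gas5 stood at 0.05 (edgeR adjusted p = 0.843). Mir9-3hg, the host transcript of a precursor of the neural microRNA miR-9, averaged 51.1 ± 4.01 CPM in Abx morphine and 32.2 ± 3.84 CPM in H2O saline (SD, n = 5 each), a fold change of 0.67 ± 0.07 (edgeR adjusted p = 1.23e-07).

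Chaperones of the endoplasmic reticulum fold secreted and membrane proteins. Of 23 such chaperone and stress genes tested, 12 fell (Pdia6, Calr, Hspa5, Pdia4, Hyou1, Xbp1, Hsp90b1, Pdia3, Canx, Sdf2l1, Creld2 and Dnajb11) and 1 rose (Herpud1, which acts in the degradation of misfolded proteins), with a median of -0.19. Without H2O saline replicate 1 the counts were 11 and 1 and the median -0.16, with Sel1l and Atf4 in place of Sdf2l1, Creld2 and Dnajb11, and without the libraries with islet reads 8 fell and none rose. For this group the promoters are shown, because several carry the endoplasmic reticulum stress element, spelled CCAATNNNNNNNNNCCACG and searched on both strands. It was found in 39 of 32851 RefSeq promoters of 300 bases (0.119%), and in 8 of the 22 list genes that have one. Among the 11 promoters of genes that fell, 6 held it (Calr, Canx, Creld2, Hsp90b1, Hspa5 and Pdia6), and it was also in those of Dnajc3 and Syvn1, which did not pass the test. A match describes the letters and shows no binding. The windows run from 250 bases before to 50 after the annotated start in GRCm38.p6, 5′ to 3′ on the gene's strand, at chr2:34771840-34772139 (plus) for Hspa5, chr12:17266339-17266638 (plus) for Pdia6, chr8:84846882-84847181 (minus) for Calr and chr10:86705395-86705694 (minus) for Hsp90b1, with the fixed letters of each match in capitals.
Hspa5: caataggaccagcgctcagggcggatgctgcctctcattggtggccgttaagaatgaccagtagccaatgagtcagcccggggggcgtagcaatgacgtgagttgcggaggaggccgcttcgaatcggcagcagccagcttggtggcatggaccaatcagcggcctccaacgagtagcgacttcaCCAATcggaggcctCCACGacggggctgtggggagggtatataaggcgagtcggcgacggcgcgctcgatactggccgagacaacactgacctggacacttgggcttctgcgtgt
Pdia6: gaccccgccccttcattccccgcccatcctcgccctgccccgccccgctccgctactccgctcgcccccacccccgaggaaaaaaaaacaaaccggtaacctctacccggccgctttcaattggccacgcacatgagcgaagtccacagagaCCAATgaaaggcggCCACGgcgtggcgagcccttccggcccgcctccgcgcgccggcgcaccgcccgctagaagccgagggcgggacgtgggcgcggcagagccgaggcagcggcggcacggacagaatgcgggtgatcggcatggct
Calr: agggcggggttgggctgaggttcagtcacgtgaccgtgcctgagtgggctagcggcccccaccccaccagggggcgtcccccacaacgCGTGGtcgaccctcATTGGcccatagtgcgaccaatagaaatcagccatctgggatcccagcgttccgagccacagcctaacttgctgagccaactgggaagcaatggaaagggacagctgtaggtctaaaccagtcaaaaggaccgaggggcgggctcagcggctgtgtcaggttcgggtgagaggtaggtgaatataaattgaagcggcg
Hsp90b1: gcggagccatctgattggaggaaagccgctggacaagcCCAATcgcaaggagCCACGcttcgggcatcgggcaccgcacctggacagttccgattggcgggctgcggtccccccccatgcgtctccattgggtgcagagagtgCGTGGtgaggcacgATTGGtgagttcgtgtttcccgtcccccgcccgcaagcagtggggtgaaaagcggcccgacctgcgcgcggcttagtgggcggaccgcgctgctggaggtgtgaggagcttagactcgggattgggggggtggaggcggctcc

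Pdia6 (ENSMUSG00000020571), a protein disulfide isomerase, had 62.0, 56.3, 57.7, 66.1 and 59.4 CPM in Abx morphine, against 94.2, 80.2, 84.6, 87.0 and 78.0 CPM in H2O saline. Its fold change was -0.49 ± 0.05 (edgeR adjusted p = 4.14e-07), with the match 98 to 80 bases before the start. Hspa5, the main chaperone of the compartment (BiP), had 148, 135, 141, 159 and 138 CPM in Abx morphine, against 238, 188, 171, 179 and 171 CPM in H2O saline. All Abx morphine libraries were lower, and H2O saline replicate 1 was the highest of all, so the fold change of -0.40 ± 0.07 became -0.29 without it (edgeR adjusted p = 0.000647). Calr, the calcium-binding lectin chaperone, averaged 230 ± 16.7 CPM in Abx morphine and 294 ± 8.24 CPM in H2O saline (SD, n = 5 each), a fold change of -0.35 ± 0.05, and its match lies on the opposite strand. Hsp90b1, the Hsp90 of this compartment, holds the element on each strand and fell by 0.29 ± 0.06. Outside the list, Mlec, a lectin of the same compartment, averaged 97.3 ± 3.22 CPM in Abx morphine and 122 ± 5.44 CPM in H2O saline, a fold change of -0.33 ± 0.04 (edgeR adjusted p = 2.32e-06).

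Of 29 cytosolic heat shock genes and chaperonins, 3 fell (Hsph1, Chordc1 and Hspa8) and 1 rose (Hsf4), with a median of -0.08, and without H2O saline replicate 1, Dnajb5 and Stip1 fell too. With all libraries 13.8% of this list passed, where 7.71% of all genes tested did. Hsph1, an Hsp110 chaperone, had 196, 189, 198, 213 and 199 CPM in Abx morphine, against 254, 253, 236, 257 and 264 CPM in H2O saline, a fold change of -0.35 ± 0.05 with no overlap. Hsf4, a heat shock factor, rose by 0.38 ± 0.09, and its call was lost without Abx morphine replicate 1 (edgeR adjusted p = 0.0501). Hspa1a and Hspa1b, the stress-inducible Hsp70 genes, stood at -0.09 and -0.12 and did not pass (edgeR adjusted p = 0.761 and 0.74).

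The circadian clock runs on transcription factors (CLOCK, BMAL1, NPAS2) that drive genes for their own repressors and for output factors. Of 14 repressor and output genes, 6 rose (Cry1, Tef, Hlf, Per3, Per2 and Nr1d2) and none fell, with a median of 0.18. Without H2O saline replicate 1, 7 rose, Bhlhe41 being added, and Nr1d1 fell. None of the 6 activator genes passed in either fit, and Arntl, which encodes BMAL1, stood at -0.22 (edgeR adjusted p = 0.0923). Cry1, a core repressor, had 23.3, 22.9, 17.4, 19.7 and 21.3 CPM in Abx morphine, against 16.0, 12.6, 14.3, 14.6 and 12.6 CPM in H2O saline. The groups did not overlap, and the fold change was 0.58 ± 0.09 (edgeR adjusted p = 7.09e-05). Per2 had 49.7, 58.3, 48.4, 40.6 and 48.1 CPM in Abx morphine, against 37.2, 36.1, 41.9, 41.8 and 36.1 CPM in H2O saline, a fold change of 0.35 ± 0.08 with some overlap. Hlf and Tef, output factors of the PAR bZIP family, rose by 0.37 ± 0.07 and 0.20 ± 0.04. The labels do not give the hour at which tissue was taken, and its part in these values was not tested.

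The E-box CACGTG, the letters bound by CLOCK and BMAL1, was present in 2349 of 32851 promoters (7.15%) and in 5 of the 12 clock genes with one (Bhlhe41, Ciart, Cry1, Per1 and Tef). Of the 5 promoters of genes that rose, Cry1 and Tef held it, and their windows are printed to show where, 60 to 55 and 127 to 122 bases before the start, at chr10:85185005-85185304 (minus) and chr15:81802423-81802722 (plus), with the E-box in capitals.
Cry1: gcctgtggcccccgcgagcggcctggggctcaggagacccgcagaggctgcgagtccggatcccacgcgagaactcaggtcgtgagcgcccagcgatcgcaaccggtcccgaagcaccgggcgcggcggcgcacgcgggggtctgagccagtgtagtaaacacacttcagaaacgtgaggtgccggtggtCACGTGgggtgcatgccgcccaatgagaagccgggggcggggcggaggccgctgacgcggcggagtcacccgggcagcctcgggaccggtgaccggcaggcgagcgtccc
Tef: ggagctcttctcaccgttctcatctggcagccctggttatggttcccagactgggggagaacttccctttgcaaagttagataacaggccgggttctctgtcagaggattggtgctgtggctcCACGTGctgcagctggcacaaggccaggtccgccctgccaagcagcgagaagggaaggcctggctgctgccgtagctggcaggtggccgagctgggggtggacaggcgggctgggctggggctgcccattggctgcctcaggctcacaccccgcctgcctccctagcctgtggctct

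Of 24 genes that respond to glucocorticoids, 8 rose (Zbtb16, Plin4, Fkbp5, Hif3a, Klf9, Map3k6, Net1 and Sult1a1) and 2 fell (Cdkn1a and Pdk4), with a median of 0.19. The counts were 7 and 1 without H2O saline replicate 1. Fkbp5, a co-chaperone of the glucocorticoid receptor, had 56.7, 37.1, 42.3, 36.9 and 36.6 CPM in Abx morphine, against 24.6, 18.1, 21.3, 20.9 and 23.4 CPM in H2O saline. Abx morphine replicate 1 was the highest and the fold change was 0.94 ± 0.14 (edgeR adjusted p = 0.000122). Plin4, which coats lipid droplets, had 7.85, 7.02, 4.91, 4.54 and 5.53 CPM in Abx morphine, against 1.27, 0.854, 1.06, 1.11 and 1.89 CPM in H2O saline, and its fold change of 2.24 ± 0.33 was the largest rise among the genes chosen by size. Zbtb16, a zinc finger transcription factor, averaged 80.6 ± 4.86 CPM in Abx morphine and 52.8 ± 7.29 CPM in H2O saline (SD, n = 5 each), a fold change of 0.62 ± 0.09. Sgk1, Tsc22d3 and Per1, which respond to the same receptor, stood at 0.21, 0.15 and 0.19 and did not pass.

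**Figure D2:**
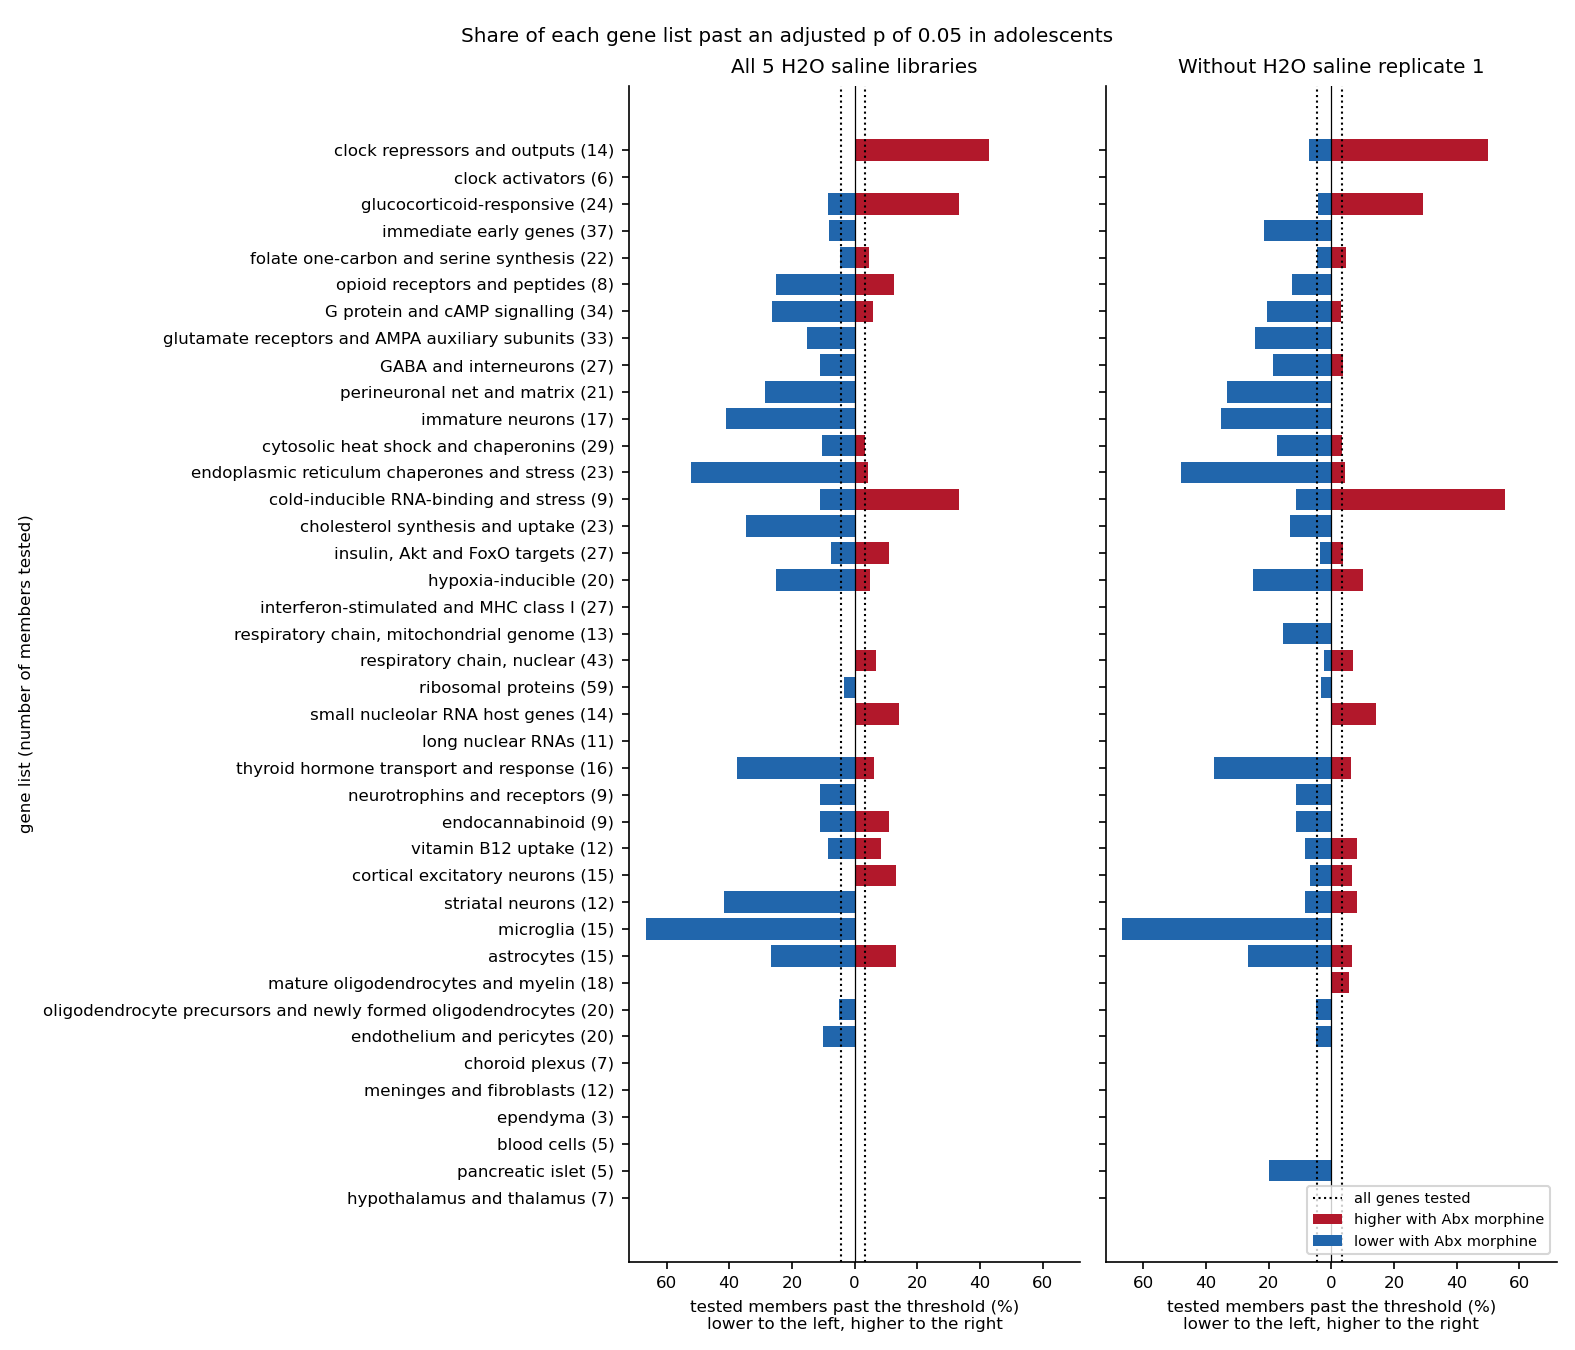
Share of the tested members of each gene list that passed an adjusted p of 0.05, lower in Abx morphine to the left in blue and higher to the right in red, with all 5 H2O saline libraries (left panel) and without replicate 1 (right panel). Dotted lines mark the same shares over all genes tested (4.36% lower and 3.35% higher in the left panel), and microglia (10 of 15 lower) and chaperones of the endoplasmic reticulum (12 of 23 lower) reach furthest to the left among lists whose counts hold in both panels.

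Folate metabolism passes carbon units between amino acids, nucleotides and methyl groups. Of 22 genes tested only Mthfd1l rose and Gldc fell, with a median of -0.03. They make up 9.09% of the list, near the 7.71% of all genes tested that passed. Mthfd1l (ENSMUSG00000040675), the mitochondrial enzyme that releases formate, had 22.5, 21.4, 21.2, 19.1 and 20.2 CPM in Abx morphine, against 12.8, 16.3, 14.3, 14.3 and 14.0 CPM in H2O saline. The groups did not overlap and the fold change was 0.55 ± 0.07 (edgeR adjusted p = 1.42e-06). Gldc, the glycine decarboxylase, fell by 0.39 ± 0.09, with 21.3 CPM in H2O saline replicate 2 inside the Abx morphine range. The call on Gldc was lost without the libraries with islet reads (edgeR adjusted p = 0.142). Amn, which with cubilin takes up vitamin B12 in the gut, ranged between 9.18 and 11.4 CPM in Abx morphine, against 3.30, 4.75, 4.07, 5.86 and 6.46 CPM in H2O saline, a fold change of 1.09 ± 0.17. Of 12 vitamin B12 genes tested, Amn rose and Cd320, the receptor for transcobalamin, fell by 0.24 ± 0.07, so that 1 rose and 1 fell. The call on Cd320 was kept without Abx morphine replicate 4 or H2O saline replicate 1 or 2 and lost without any other library (edgeR adjusted p = 0.0659 to 0.113). Cubn, the partner of Amn, stood at -0.29 (edgeR adjusted p = 0.745). Lias, which makes the lipoate cofactor of the glycine cleavage system and other mitochondrial enzymes, rose by 0.38 ± 0.05.

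Microglial markers were lower. Their summed level was 436 to 482 CPM in Abx morphine, against 535 to 617 CPM in H2O saline, without overlap, and 10 of 15 fell, among them Cx3cr1, Fcrls, C1qa, Tmem119, C1qb, Csf1r, Ctss, C1qc and P2ry12. None rose, the median was -0.31, and without H2O saline replicate 1 the count was again 10 with a median of -0.34. Without the libraries with islet reads 7 fell. In bulk RNA, fewer cells of a type and less RNA per cell cannot be told apart. Cx3cr1, the fractalkine receptor, had 35.9, 38.7, 38.5, 44.4 and 40.2 CPM in Abx morphine, against 54.2, 47.3, 58.6, 50.8 and 51.3 CPM in H2O saline. Its fold change was -0.41 ± 0.06 (edgeR adjusted p = 3.19e-05). Fcrls, an Fc receptor-like gene of microglia, fell by 0.74 ± 0.11 and C1qa, a subunit of complement C1q, by 0.43 ± 0.08. Aif1 and Cd68 did not pass, at -0.41 and -0.24 (edgeR adjusted p = 0.109 and 0.303). Hexa, a lysosomal hexosaminidase subunit not on the list, averaged 31.0 ± 1.92 CPM in Abx morphine and 41.5 ± 2.11 CPM in H2O saline, a fold change of -0.42 ± 0.05. None of 27 interferon-stimulated and MHC class I genes passed in either fit, with a median of -0.16.

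Astrocyte markers changed in both directions. Of 15, Etnppl and Fgfr3 rose and Aqp4, Slc7a10, Slc1a3 and Gja1 fell, with a median of -0.20, and their summed level was 4309 to 4549 CPM in Abx morphine, against 4518 to 5331 CPM in H2O saline. When H2O saline replicate 1 was left out, Etnppl rose, Aqp4, Slc7a10, Slc1a3 and Slc1a2 fell, and Fgfr3 and Gja1 did not pass (edgeR adjusted p = 0.0741 and 0.145). With the libraries holding islet reads left out, 2 rose and 1 fell. Etnppl, which breaks down phosphoethanolamine, had 51.5, 42.1, 37.5, 36.1 and 38.2 CPM in Abx morphine, against 14.3, 19.1, 14.8, 18.3 and 22.3 CPM in H2O saline, a fold change of 1.22 ± 0.17 (edgeR adjusted p = 4.65e-05). Aqp4, the water channel of astrocyte endfeet, had 48.5, 57.2, 56.4, 61.9 and 59.1 CPM in Abx morphine, against 119, 78.5, 103, 77.0 and 78.0 CPM in H2O saline. It moved opposite to Etnppl, by -0.69 ± 0.12, and by -0.57 without H2O saline replicate 1.

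Thyroid hormone enters the brain through transporters and is activated in astrocytes by the deiodinase Dio2. Of 16 genes of this list, 6 fell, among them Slco1c1, Dio2, Dio3, Thrsp and Thrb, and 1 rose (Klf9), with a median of -0.13. The counts were also 6 and 1 without H2O saline replicate 1, and without the libraries with islet reads 3 and 1. Slco1c1, a thyroxine transporter, averaged 41.2 ± 3.15 CPM in Abx morphine and 58.6 ± 5.44 CPM in H2O saline (SD, n = 5 each), a fold change of -0.51 ± 0.07. Dio2 had 60.8, 59.3, 56.7, 62.2 and 58.7 CPM in Abx morphine, against 76.0, 86.2, 127, 99.1 and 86.8 CPM in H2O saline. The groups did not overlap, the spread was wider in H2O saline, and the fold change was -0.67 ± 0.11.

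Of 17 genes of immature neurons and glia, 7 fell. Fabp7 (ENSMUSG00000019874), the brain fatty acid binding protein of radial glia and astrocytes, had 6.13, 6.78, 9.54, 8.70 and 6.61 CPM in Abx morphine, against 23.3, 21.0, 24.3, 17.5 and 14.7 CPM in H2O saline. Its fold change was -1.43 ± 0.15 (edgeR adjusted p = 1.36e-07) and -1.36 without H2O saline replicate 1. The 7 were Fabp7, Tubb2b, Marcks, Marcksl1, Cd24a, Tuba1a and Sox11, and none rose, with a median of -0.27. Sox11 did not pass without H2O saline replicate 1, where 6 fell and the median was -0.14. Dcx and Stmn1, further markers of young neurons, stood at -0.16 and 0 (edgeR adjusted p = 0.476 and 0.992). Tubb2b, a tubulin of growing neurites, had 38.5, 43.6, 46.8, 52.3 and 49.7 CPM in Abx morphine, against 115, 75.8, 78.9, 72.3 and 66.1 CPM in H2O saline, so that its fold change of -0.83 ± 0.12 became -0.66 without replicate 1.

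Perineuronal nets are matrix around interneurons that forms during adolescence. Of 21 matrix genes, 6 fell (St8sia2, Ptprz1, Tnc, Has3, Hapln1 and Ncam1) and none rose, with a median of -0.15, and without H2O saline replicate 1 the count was 7 and the median -0.08. With the libraries holding islet reads left out, 3 fell. St8sia2, which adds polysialic acid to the adhesion molecule Ncam1, had 2.75, 2.91, 4.06, 3.45 and 3.59 CPM in Abx morphine, against 12.9, 8.16, 7.45, 5.95 and 4.48 CPM in H2O saline. Its fold change of -1.24 ± 0.22 was -0.95 without replicate 1. Acan, the aggrecan core protein of the nets, stood at 0.09 (edgeR adjusted p = 0.826). Among 33 glutamate receptor genes, 5 fell (Grm3, Cacng4, Shisa9, Grm5 and Grin2c) and none rose, with a median of -0.06. The count was 8 without H2O saline replicate 1, with Grin3a, Cacng3 and Cnih2 added, and 2 without the libraries with islet reads. Grm3, the metabotropic receptor mGlu3, had 44.5, 43.9, 42.4, 45.5 and 45.2 CPM in Abx morphine, against 65.5, 61.8, 64.8, 64.2 and 60.9 CPM in H2O saline. The spread in each group was small beside the gap, with a fold change of -0.52 ± 0.06 (edgeR adjusted p = 2.1e-06). Among 27 genes of GABA signalling and interneurons the receptor subunits Gabra2, Gabrg1 and Gabrb1 fell, Gabra2 by 0.53 ± 0.08, and none rose, with a median of 0.02. They are 11.1% of that list, where 7.71% of all genes tested passed. When H2O saline replicate 1 was left out, 5 fell (Gabra2, Gabrg1, Calb1, Cck and Sst), Gad1 rose, Gabrb1 did not pass (edgeR adjusted p = 0.0501) and the median was -0.05. Gabrg1 lost its call without Abx morphine replicate 2 or 3 or H2O saline replicate 3 or 4 (edgeR adjusted p = 0.0537 to 0.0772). With the libraries holding islet reads left out, 1 of the 27 genes fell and Gabrg1 did not pass (edgeR adjusted p = 0.0787).

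Immediate early genes, which neurons switch on with activity, leaned low with few calls. Of 37 tested, 3 fell (Bdnf, Crem and Klf10) and none rose, with a median of -0.26. These are 8.11% of the list, where 7.71% of all genes tested passed in either direction and 4.36% fell. Without H2O saline replicate 1 the count was 8 (Nptx2, Egr2, Dusp6, Nr4a1 and Spry4 being added) with a median of -0.34, and without the libraries with islet reads it was 0. Bdnf, a growth factor of synapses, had 25.0, 24.8, 24.8, 25.5 and 27.8 CPM in Abx morphine, against 21.5, 41.5, 42.6, 43.5 and 37.1 CPM in H2O saline. H2O saline replicate 1 alone lay below the Abx morphine range, and the fold change of -0.53 ± 0.13 (edgeR adjusted p = 0.011) became -0.68 without it (edgeR adjusted p = 1.99e-05). The call on Bdnf was lost without the libraries with islet reads (edgeR adjusted p = 0.207), that on Crem without Abx morphine replicate 2 or H2O saline replicate 3 (0.056 and 0.051), and that on Klf10 without any library but Abx morphine replicate 4 or H2O saline replicate 1 (0.0627 to 0.143). Fos, the classic activity marker, had 13.6, 15.0, 11.6, 13.7 and 23.6 CPM in Abx morphine, against 14.5, 27.2, 14.0, 40.7 and 33.9 CPM in H2O saline. These ranges overlap, and Fos did not pass, at -0.74 ± 0.34 (edgeR adjusted p = 0.196), while it passed by limma-voom, at -0.93 (adjusted p = 0.0462).

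Of the 8 opioid receptor and peptide genes, Oprl1 rose and Oprd1 and Penk fell. Oprm1, the mu receptor, had 3.97, 3.84, 4.20, 4.03 and 3.38 CPM in Abx morphine, against 4.26, 4.56, 3.00, 2.90 and 3.91 CPM in H2O saline. These overlap throughout, with a fold change of 0.06 ± 0.16 (edgeR adjusted p = 0.869). Oprd1, the delta receptor, averaged 25.2 ± 1.28 CPM in Abx morphine and 30.0 ± 3.34 CPM in H2O saline (SD, n = 5 each), a fold change of -0.26 ± 0.07. It was the 1 gene of the list that passed without H2O saline replicate 1, where Penk stood at -0.05 (edgeR adjusted p = 0.877), but Oprd1 did not pass without Abx morphine replicate 2 or H2O saline replicate 3 (0.0517 and 0.0696). No gene of this list passed without the libraries with islet reads. Of 34 G protein and cyclic AMP genes, 2 rose (Adcy9 and Grk3) and 9 fell, with a median of -0.05. Grk5, a kinase that desensitises receptors, averaged 23.2 ± 2.29 CPM in Abx morphine and 36.4 ± 6.86 CPM in H2O saline, a fold change of -0.65 ± 0.10. Adcy9, an adenylyl cyclase, averaged 81.3 ± 11.4 CPM in Abx morphine and 60.3 ± 5.72 CPM in H2O saline and rose by 0.43 ± 0.08. Leaving out H2O saline replicate 1, Grk3, Gnai2, Adcy5 and Rgs9 did not pass and Adcy2 fell. With the libraries holding islet reads left out, 1 of the 34 genes rose and 3 fell.

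Metabolic lists held a few changes each. Akt2, a kinase of insulin signalling, had 73.4, 81.1, 86.4, 86.8 and 90.4 CPM in Abx morphine, against 102, 115, 129, 118 and 120 CPM in H2O saline, a fold change of -0.48 ± 0.07 (edgeR adjusted p = 3.01e-05), while Akt1 stood at 0.04 (edgeR adjusted p = 0.669). Igfbp4, a binding protein of the IGFs, rose by 0.35 ± 0.06, and in all 3 of 27 genes of the insulin list rose and 2 fell, of which Igfbp4 and Akt2 passed without H2O saline replicate 1. Of 20 hypoxia-inducible genes, 5 fell (P4ha1, Apln, Ldha, Hk2 and Vegfa) and 1 rose (Hif3a, also counted among the glucocorticoid genes above), with a median of -0.04. Without H2O saline replicate 1 the same 5 fell, and Kdm3a rose beside Hif3a. Without the libraries with islet reads 2 fell and 1 rose. Apln, the peptide apelin, had 9.83, 11.1, 11.5, 14.5 and 14.5 CPM in Abx morphine, against 19.7, 19.8, 24.2, 28.2 and 21.9 CPM in H2O saline, a fold change of -0.90 ± 0.15. Of 23 cholesterol genes, 8 fell and none rose, with a median of -0.25. Leaving out H2O saline replicate 1, 3 fell, Msmo1 and Nsdhl among them, and the median was -0.13. The count was 4 without the libraries with islet reads. Msmo1, a sterol demethylase of the pathway, fell by 0.44 ± 0.10 with that library and by 0.33 without it. Nsdhl, which acts in the same demethylation, fell by 0.33 ± 0.09 and lost its call without Abx morphine replicate 1, 2 or 5 (edgeR adjusted p = 0.0646, 0.0516 and 0.0513).

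Respiratory chain and ribosomal genes were nearly level. Of 43 nuclear respiratory genes, 3 rose (Uqcrc1, Ndufv1 and Ndufs3, by 0.14 to 0.18) and none fell, none of the 13 mitochondrially encoded ones passed, and of 59 ribosomal protein genes Rplp1 and Rplp2 fell. The share that passed was 6.98% of the nuclear respiratory and 3.39% of the ribosomal genes, below the 7.71% of all genes tested. Leaving out H2O saline replicate 1, mt-Nd2 and mt-Nd4 fell, as did Atp5e. The calls on Ndufs3 and Rplp1 were lost without Abx morphine replicate 1 (edgeR adjusted p = 0.112 and 0.176), without Abx morphine replicate 3 (0.0652 and 0.0719) and without H2O saline replicate 2 (0.051 and 0.11), and that on Rplp1 also without any other library but Abx morphine replicate 4 or H2O saline replicate 1 (0.0603 to 0.0914). The mitochondrial glutamine tRNA gene mt-Tq, among the smallest p values, averaged 33.4 ± 3.57 CPM in Abx morphine and 49.2 ± 3.92 CPM in H2O saline, a fold change of -0.57 ± 0.08, read here from polyadenylated RNA. In the same ranking, Lrp4, a receptor for agrin, fell by 0.67 ± 0.09, Emp2, a membrane protein, by 0.81 ± 0.11, and Mettl16, an RNA methyltransferase, by 0.56 ± 0.08. Eml2, a microtubule-binding protein, rose by 0.36 ± 0.05, and Arhgef10l, a guanine nucleotide exchange factor, by 0.41 ± 0.05.

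Some of the largest changes rested on H2O saline replicate 1. Drd2, the dopamine receptor of striatal neurons, had 1.17, 0.959, 1.64, 1.28 and 1.49 CPM in Abx morphine, against 53.3, 1.23, 0.688, 0.871 and 2.59 CPM in H2O saline. Its fold change was -3.26 ± 0.79 with that library and -0.11 without it (edgeR adjusted p = 0.0109 and 0.89). Of 12 striatal markers 5 fell with it, at a median of -0.98, while without it Gng7 fell, Ppp1r1b rose and the median was -0.04. Myelin genes turned round, as none of 18 passed and the median was -0.49 with it, while without it Gal3st1 rose and the median was 0.91. Mbp, a main protein of myelin, stood at -0.49 and 0.98 (edgeR adjusted p = 0.649 and 0.102). Glp1r, the receptor for the gut peptide GLP-1, averaged 0.468 ± 0.194 CPM in Abx morphine and 3.00 ± 4.08 CPM in H2O saline, where replicate 1 had 10.2 CPM, and it fell by 2.75 ± 0.53 with that library and by 1.33 without it. Rxrg, a retinoid X receptor, fell by 2.02 ± 0.44 with it and by 1.12 without it. Gh, growth hormone, had 1, 0, 0, 0 and 0 counts in Abx morphine, against 4, 0, 153, 14 and 18 counts in H2O saline, so that its difference came mainly from H2O saline replicate 3.

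**Figure D3:**
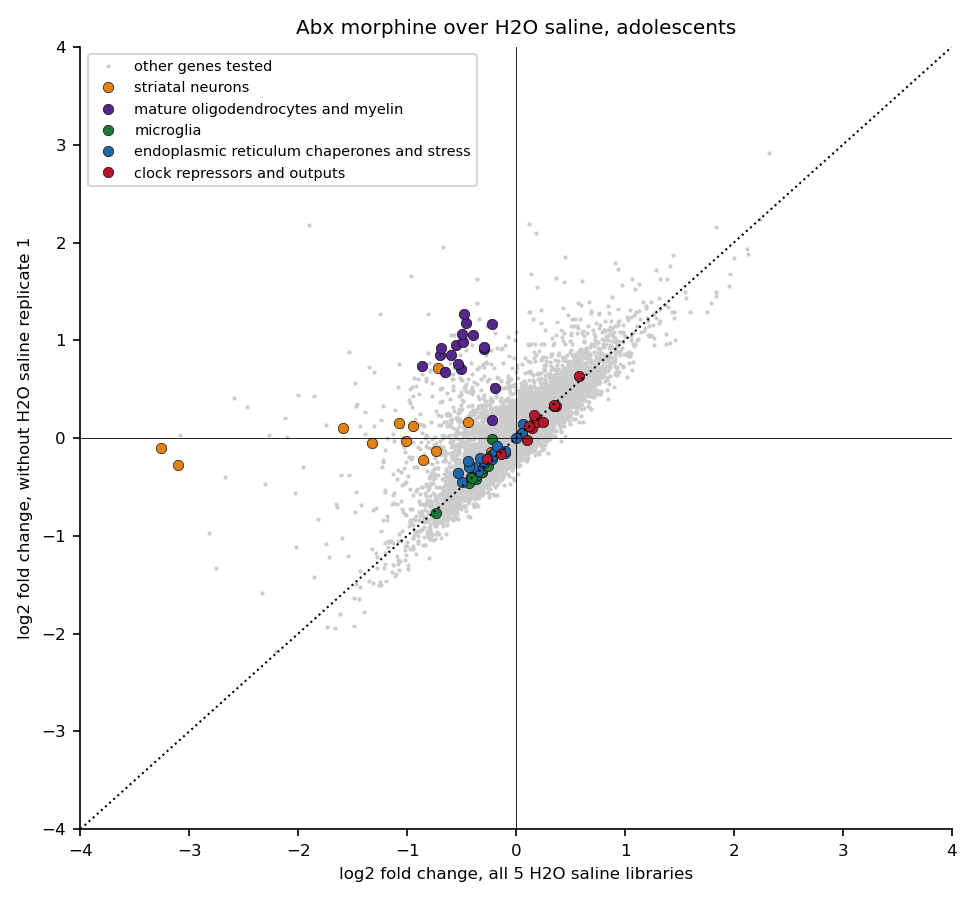
Log2 fold change of Abx morphine over H2O saline for each gene tested, with all 5 H2O saline libraries on the horizontal axis and without replicate 1 on the vertical axis (79 genes not tested without replicate 1, and 1 gene beyond 4 on an axis, are not drawn). Striatal and myelin markers (orange and purple) leave the dotted line of equal values, while microglial, chaperone and clock genes (green, blue and red) lie along it.

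Marker lists of other cells changed little. C1ql1 fell among 20 genes of oligodendrocyte precursors, and Tek and Pltp among 20 of endothelium and pericytes. Tek lost its call without Abx morphine replicate 1, 3 or 4 or H2O saline replicate 3 or 5 (edgeR adjusted p = 0.0543 to 0.127), and Pltp without H2O saline replicate 1 (0.0852). Tbr1 and Neurod2, transcription factors of excitatory neurons, rose among 15 such markers with a median of 0.05, but without H2O saline replicate 1 Neurod2 did not pass (edgeR adjusted p = 0.0504) and Neurod6 fell. None of the tested markers of choroid plexus, meninges, ependyma, blood, islet or hypothalamus and thalamus passed with all libraries, while without H2O saline replicate 1 Sst, which also marks cortical interneurons, fell.

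The other 2 adolescent groups share the H2O saline or the Abx morphine libraries with the comparison above, so their values are set side by side and not counted as separate evidence. H2O morphine against H2O saline gave 64 genes (0.331%), 36 higher (0.186%) and 28 lower (0.145%), and without H2O saline replicate 1 there were 20 (0.104%), 12 higher (0.0623%) and 8 lower (0.0416%). Abx saline against H2O saline gave 2 by edgeR (0.0103%), which were Igfbp4 and Amn, both higher, with 1905 genes at an unadjusted p under 0.05. Neither passed without H2O saline replicate 1 (edgeR adjusted p = 0.0504 and 0.0799), where 1492 genes had an unadjusted p under 0.05. Abx morphine against H2O morphine gave 214 (1.11%), 93 higher (0.481%) and 121 lower (0.626%). Leaving H2O saline replicate 1 out of the shared estimate of the spread raised this to 390 (2.03%), 177 higher (0.919%) and 213 lower (1.11%). Abx morphine against Abx saline gave 9 (0.0466%), 3 higher (0.0155%) and 6 lower (0.031%), among them Mthfd1l and Cry1 higher and Fabp7, Akt2 and Klf10 lower. Without H2O saline replicate 1 in the fit this was 33 (0.171%), 10 higher (0.0519%) and 23 lower (0.119%).

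The gene groups had different counts in these contrasts, and the differences between the counts were not tested. Of the 14 clock repressor and output genes, 8 rose in H2O morphine over H2O saline (Per2, Hlf, Per1, Dbp, Cry1, Tef, Ciart and Per3), and 6 without H2O saline replicate 1. None of the 14 passed in Abx morphine over H2O morphine or in Abx saline over H2O saline. Of the 23 genes of the endoplasmic reticulum, 6 fell in Abx morphine against H2O morphine (Sdf2l1, Hspa5, Pdia6, Xbp1, Calr and Pdia4), and 11 with H2O saline replicate 1 out of the fit. None of the 23 fell in H2O morphine or Abx saline against H2O saline, where the medians were -0.02 and -0.10. Of the 37 immediate early genes, 9 fell in Abx morphine against H2O morphine (Spry4, Klf10, Nab2, Dusp6, Bdnf, Sik1, Dusp5, Fosb and Nr4a1), with a median of -0.45, and 12 fell with H2O saline replicate 1 out of the fit. Their medians against H2O saline were 0.17 in H2O morphine and 0.27 in Abx saline, with none passing, and 0.08 and 0.13 without H2O saline replicate 1. Of the 15 microglial markers, Fcrls and Cx3cr1 fell in Abx morphine against H2O morphine, and none passed in H2O morphine or Abx saline against H2O saline, with medians of -0.18 in each.

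Single genes gave different orders. Mthfd1l averaged 20.9 ± 1.27 CPM in Abx morphine, 15.1 ± 0.678 CPM in Abx saline, 20.2 ± 1.04 CPM in H2O morphine and 14.3 ± 1.27 CPM in H2O saline, with the higher means in the morphine groups. Cirbp averaged 77.7 ± 4.34, 63.6 ± 1.46, 53.8 ± 4.34 and 53.2 ± 5.05 CPM in the same 4 groups, with Abx saline between Abx morphine and H2O saline, and it did not pass in Abx saline against H2O saline. Rbm3 averaged 97.6 ± 4.56 CPM in Abx morphine, 78.7 ± 4.93 CPM in Abx saline, 77.0 ± 6.38 CPM in H2O morphine and 61.9 ± 3.91 CPM in H2O saline, and Fabp7 7.55 ± 1.48, 14.2 ± 2.40, 13.1 ± 0.602 and 20.1 ± 4.02 CPM (SD, n = 5, 3, 5 and 5), each with the single treatments in between. For Rbm3 and Fabp7 the interaction was -0.00 ± 0.09 and -0.30 ± 0.22 (edgeR adjusted p = 1 and 0.809), which does not show that the treatments add up.

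The interaction contrast asks whether the difference between Abx morphine and Abx saline differs from that between H2O morphine and H2O saline. It passed for 12 of 19332 genes (0.0621%), with lower values in Abx morphine than the sum of both treatments on the log2 scale in every case. Without H2O saline replicate 1 it passed for 12 (0.0623%), of which 10 were shared. The 6 with the smallest p were Spry4 and Dusp5, which restrain ERK signalling, Stk40, a kinase-like protein, the clock gene Per1, Nab2, a corepressor of EGR factors, and the early gene Klf10. Spry4 averaged 10.9 ± 0.76 CPM in Abx morphine, 18.1 ± 0.659 CPM in Abx saline, 19.3 ± 2.40 CPM in H2O morphine and 14.0 ± 2.95 CPM in H2O saline, an interaction of -1.20 ± 0.18 (edgeR adjusted p = 0.0017). Per1 averaged 114, 139, 138 and 99.7 CPM in the same groups, over ranges of 97.0 to 129, 124 to 152, 125 to 148 and 88.4 to 118 CPM, an interaction of -0.75 ± 0.12 (edgeR adjusted p = 0.00341). For both genes the mean of each single treatment lay above H2O saline and also above Abx morphine. Of the 12, only Stk40 and Klf10 also passed in Abx morphine against H2O saline. There Stk40 did not pass without Abx morphine replicate 1 or H2O saline replicate 3 (edgeR adjusted p = 0.0666 and 0.0618). Neither Stk40 nor Klf10 passed there without the libraries with islet reads (edgeR adjusted p = 0.374 and 0.209). The interaction itself was not refitted with a term for such reads or without those libraries. Abx saline entered with 3 libraries, and the count was 6 without its replicate 2, 5 without its replicate 5, and 21 without H2O saline replicate 4.

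**Figure D4:**
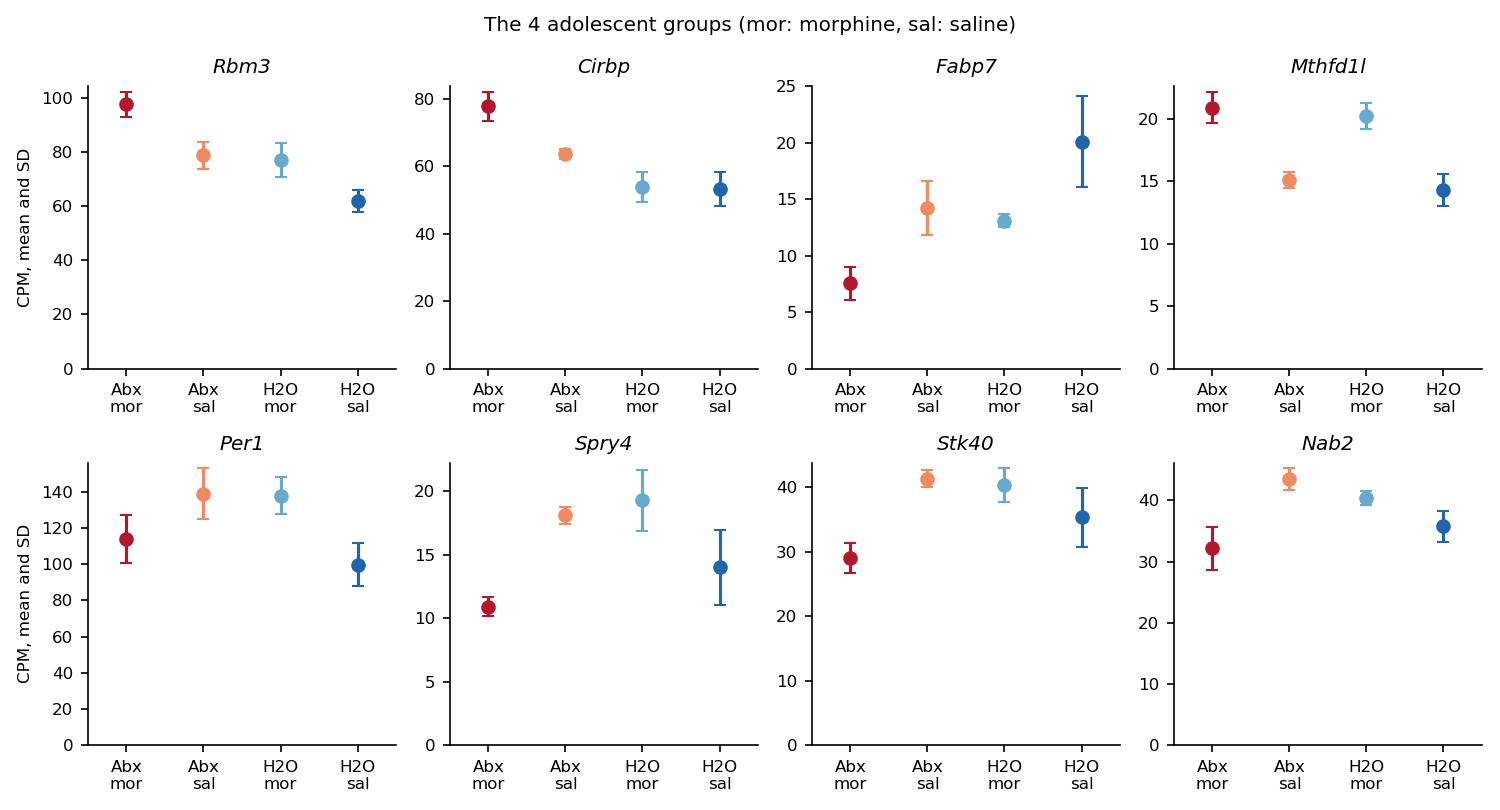
Mean CPM with SD in the 4 adolescent groups (mor: morphine, sal: saline; n = 5, 3, 5 and 5 from left to right) for 4 genes that changed in Abx morphine against H2O saline (top) and 4 with an interaction (bottom). Rbm3 and Fabp7 have both single treatments between the outer groups, and Per1 and Spry4 have both above H2O saline.

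The same pair of treatments in adults used no library of the adolescent comparison. It gave 289 genes (1.49%), 137 higher (0.709%) and 152 lower (0.786%), with 4 Abx morphine and 3 H2O saline libraries. The count depended on single libraries, being 142, 114 and 444 without adult Abx morphine replicates 1, 2 and 3 and 89 and 68 without adult H2O saline replicates 1 and 3. Of the 1490 genes of the adolescents, 1270 had the same sign in adults (85.2%), where 60.0% of all genes tested did, and for those that passed without H2O saline replicate 1 too it was 916 of 1005 (91.1%). In the same direction 165 passed at both ages, 11.1% of the adolescent and 57.1% of the adult calls. Rbm3 rose by 0.62 ± 0.07 in adults, Cirbp by 0.69 ± 0.09, Mthfd1l by 0.57 ± 0.08 and Cry1 by 0.71 ± 0.11, and Plin4 by 2.71 ± 0.36. Fabp7 fell by 1.20 ± 0.19, Grm3 by 0.57 ± 0.08 and Akt2 by 0.63 ± 0.08. Of 23 genes of the endoplasmic reticulum, Calr and Sel1l fell in adults (median -0.12), and of 14 small nucleolar RNA host genes, Zfas1, Gas5 and Snhg3 rose. Of 15 microglial markers, Cx3cr1, Tmem119 and Fcrls fell (median -0.17), and of 14 clock genes, Cry1 rose (median 0.09). How these counts differ from those in adolescents was not tested.

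No gene passed in the test of the difference between the ages by edgeR (0 of 19332, 0.0%), with 1678 at an unadjusted p under 0.05. Without a filter on low counts 2 passed, DESeq2 called 3, limma-voom called 0, and 2 passed without adolescent H2O saline replicate 4. The smallest edgeR adjusted p was 0.109, for Ntn5 and Lingo2. Ntn5, a netrin family member, averaged 2.92 ± 0.309 CPM in Abx morphine and 1.22 ± 0.485 CPM in H2O saline in adolescents, and 2.98 ± 0.353 and 3.91 ± 0.451 CPM in the same groups of adults. Zbtb16 followed, with a fold change of 0.62 ± 0.09 in adolescents and -0.06 ± 0.11 in adults (edgeR adjusted p of the difference = 0.233). With 3 to 5 libraries a group, these tests do not show that the ages respond alike.

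**Figure D5:**
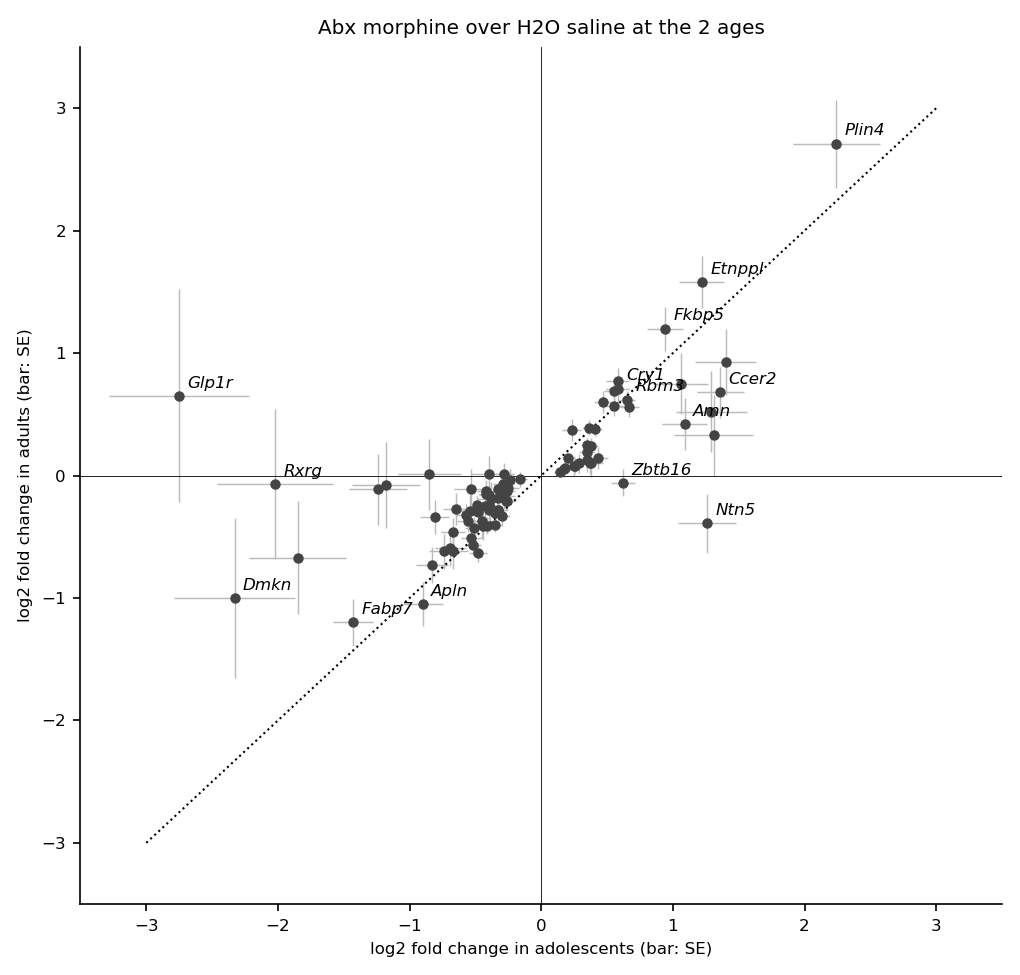
Log2 fold change of Abx morphine over H2O saline in adolescents (horizontal) and adults (vertical) for 89 named genes, with SE as bars and a dotted line of equal values. Of these, 83 have the same sign at both ages and 32 passed in adults too, with Plin4, Etnppl and Fkbp5 far to the upper right, and Ntn5 and Zbtb16 positive on the horizontal axis alone.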

How the data were processed

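The labels' protocols name the RNeasy Mini kit (Qiagen) for extraction, polyadenylated RNA, and ABclonal's Fast RNA-seq kit V2 for the libraries. The authors deposited 1 table of raw counts per gene, whole numbers whose column names carry the ending of STAR gene counts, with STAR 2.7.10a, DESeq2 and the mm10 build named in the submitters' processing notes. Gene symbols were matched by identifier to GENCODE M21 (52073 of 56980, the rest holding 3.86% of counts). Neither the annotation release nor the strand setting of the counting is stated in the sources used here.

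From these counts, 35 libraries of at least 1000000 counts (10630727 to 31560468) were fitted in 1 model with 8 group means by edgeR 4.0.16 in R 4.3.3 (TMM scaling, filterByExpr, robust quasi-likelihood test, Benjamini-Hochberg adjustment over 19332 genes, threshold 0.05). A pair of near-empty libraries with 25165 and 58764 counts, neither in the adolescent comparison, was left out. The SE is the size of the log2 fold change over the square root of the F statistic. The contrast of the age difference is adolescent minus adult. Replicate libraries were counted as separate (lowest chi-square per degree of freedom between replicates 3.18). Nothing in the labels says that they came from separate animals, so p-values measure the spread between samples, which may be technical.

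Members and gene lists were chosen with earlier results of these data known. Some genes are counted in more than 1 list, among them Hif3a, Klf9, Pdk4, Crem and Hspa8, and are not separate evidence in each. Named genes are, per direction, 10 by smallest adjusted p and 5 by size of change, among genes passing with and without H2O saline replicate 1 with a mean of at least 1 CPM, up to 3 per list, and a fixed set (Mthfd1l, Per2, Cry1, Zbtb16, Fkbp5, Fos, Oprm1, Amn, Mbp, Drd2 and Cx3cr1). The last ranks were left out, and list members that passed are given by name. Other list members and the members named as not passing were picked after their values were seen. Sequences are RefSeq promoters of GRCm38.p6. Alternatives were all 37 libraries, DESeq2 size factors, DESeq2 1.42.0, limma 3.58.1 with sample weights, no filter, only the compared groups, a replicate block and leaving out each library. A term for islet reads, leaving out the libraries that hold them and thinning were added after the data were seen. The method was tested on simulated counts, with results not given here. They held no library set apart as H2O saline replicate 1 was, so that test cannot speak to such libraries. Some genes are not reported here.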

Additional observations from a re-analysis of the deposited data

Results flagged for a closer look

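The 99 genes chosen by the rules for named genes and each summed marker list were screened for a library far from the other 4 of its group. The limit was a gap above 0.71 of the group's range (Dixon's critical value for 5 values). Other list members given by name were not screened. Of 224 groups, 27 had such a library (12.1%), where chance gives about 1 in 20 for independent groups. Of the 27, 19 were in H2O saline replicate 1. That library had been set apart beforehand for striatal and myelin transcripts, which are among the values screened, so its flags are not separate evidence. The groups also come from the same 10 libraries and are not independent, so the share cannot be tested against chance.

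In Abx morphine, replicate 1 was highest for Fkbp5 (56.7 CPM, others 36.6 to 42.3), Klf9 (327 CPM, others 275 to 285) and Gh (0.0451 CPM, others 0). Replicate 5 was highest for Bdnf (27.8 CPM, others 24.8 to 25.5) and Fos (23.6 CPM, others 11.6 to 15.0). Replicate 4 was highest for the summed myelin markers (7405 CPM, others 3194 to 4304).

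In H2O saline, replicate 1 was highest for Drd2 (53.3 CPM, others 0.688 to 2.59), Gng7 (381 CPM, others 98.3 to 112), Glp1r (10.2 CPM, others 0.775 to 2.0) and Dmkn (4.33 CPM, others 0.57 to 1.4). It was also highest for Mbp (8551 CPM, others 534 to 1264), Tubb2b (115 CPM, others 66.1 to 78.9), Hspa5 (238 CPM, others 171 to 188), Msmo1 (104 CPM, others 73.1 to 78.7), Prkar2b (92.0 CPM, others 67.8 to 74.8) and Gas5 (53.0 CPM, others 45.4 to 47.1). It was lowest for Bdnf (21.5 CPM, others 37.1 to 43.5), Tef (358 CPM, others 377 to 383) and Zbtb16 (39.8 CPM, others 55.2 to 57.0). Its summed markers were highest for striatal neurons (2421 CPM), myelin (22109 CPM), oligodendrocyte precursors (1461 CPM, others 667 to 716), choroid plexus (320 CPM, others 129 to 170) and ependyma (55.1 CPM, others 12.9 to 15.7), and lowest for cortical excitatory neurons (5363 CPM). Replicate 3 was highest for Gh (9.58 CPM, others 0 to 0.848) and for the markers of meninges and fibroblasts (1121 CPM, others 248 to 438).

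The effect of morphine differed between mice on antibiotics and mice on water, by the interaction term, for Spry4 (-1.20), Dusp5 (-1.24), Klf10 (-1.10), Per1 (-0.75), Stk40 (-0.71) and Nab2 (-0.61), all on the log2 scale. No cause was tested for any of these.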

How the results depend on the processing

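The count of 1490 genes in adolescents was 1237 with all 37 libraries, 1473 with DESeq2 size factors, 1686 by DESeq2 and 1998 by limma-voom. It was 960 with no filter on low counts, 499 when the fit held only the groups compared, and 760 to 1719 with 1 library left out. Of alternatives chosen after seeing the data, a term for islet reads gave 990, leaving out the libraries with islet reads 450 (416 of them among the 1490), and thinning each library to 10630727 counts 1060. The interaction (12 genes) gave 26 by DESeq2 and 5 to 21 with 1 library left out. The adult count (289) was 490 by DESeq2, 829 by limma-voom, 176 with no filter and 68 to 444 with 1 library left out. The age difference (0) gave 3 by DESeq2, 2 with no filter and 0 to 2 with 1 library left out. Named genes were not followed in the fit of only the compared groups or after thinning. Of 91 named genes that passed, 62 did so under every other alternative that tested them, and 75 with each library left out in turn, where tested. Among the calls lost without the libraries with islet reads were those on Gas5, Srsf5, Gldc, Cd320, Oprd1, Gabrg1, Slc7a10, Shisa9 and Chordc1. Fos, which did not pass, did so by limma-voom (adjusted p = 0.0462) and with the replicate block (0.0277). Direction changed for genes that did not pass: Mbp was 0.79 by limma-voom and -0.76 to 0.98 with 1 library left out, Dusp5 was -0.12 by limma-voom, -0.01 with the islet term and -0.10 to 0.14 with 1 library left out (-0.06, 0.00, -0.07 and -0.10 without Abx morphine 1 or 2 or H2O saline 1 or 3), and Oprm1 was -0.01 without the libraries with islet reads and -0.01 to 0.13 with 1 library left out. The cause was not tested. What libraries of the same number share is not given. Over all genes, Abx morphine and H2O saline libraries of the same number correlated at -0.118 to 0.034. Factors that act on only some genes were not tested in this way. The replicate block gave 1331, 17, 261 and 0 genes for the 4 contrasts, and calls lost with it included those on Gas5, Klf10, Rplp1 and Cd320. Depth limits what can be said of low genes such as Gh and Glp1r.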
